A study of Saccharomyces cerevisiae with 109 samples.

Results

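Described here are 10 genes of budding yeast (Saccharomyces cerevisiae) that take up phosphate, free it from other molecules, store it as polyphosphate or help control this: PHO84, PHO89, PHO5, PHO8, PHO81, SPL2, VTC1, VTC2, VTC3 and VTC4. They are 10 of 5876 nuclear protein-coding genes in the tables. The genes were chosen by name as a pathway, after an earlier reading of these data in which PHO84 fell over labelling time at 5 °C with low [GSH], so that contrast is described below without a test. The questions asked of them were how their RNA levels in near-freezing cultures compare with those at 30 °C, whether added glutathione changes them, and how their newly made RNA builds up.

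Yeast senses phosphate through the PHO pathway. When phosphate is scarce, Pho81 holds back the cyclin-dependent kinase Pho80-Pho85, the transcription factor Pho4 stays in the nucleus, and Pho4 with Pho2 turns on genes for uptake and scavenging. Pho84 is the main high-affinity phosphate transporter of the plasma membrane and Pho89 a sodium-coupled one, Pho5 is a secreted acid phosphatase, Pho8 the alkaline phosphatase of the vacuole, and Spl2 a small protein that restrains low-affinity uptake. The VTC complex of the vacuole membrane links phosphate into polyphosphate chains, with Vtc4 as the polymerase, Vtc1 as a small membrane subunit and Vtc2 and Vtc3 as alternative partners.

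The upstream DNA is shown because Pho4 is known to bind the letters CACGTG, with CACGTT as a weaker form, and because it is what the members share beside their function. In the 600 bases before the start codon, all 10 members held CACGTG, a motif that reads the same on both strands, against 428 of all 5876 genes (7.28%). At least 2 copies were found before 4 of the 10 members (SPL2 with 4, and PHO84, VTC3 and VTC4 with 2 each), against 52 of all genes (0.885%). CACGTT on either strand was found before 6 of the 10 members, against 1116 genes (19.0%). The 2 motifs differ in their last letter, so no stretch counts as both. The members were chosen as phosphate genes and several are known as Pho4 targets, so these shares are a description. In the stretches below, read 5′ to 3′ in the direction of each gene from the R64 reference, capitals mark CACGTG or CACGTT, and CACGTT reads AACGTG where it lies on the other strand.
PHO84 (chrXIII:26047-26246, minus strand, 446 to 247 bases before the start codon): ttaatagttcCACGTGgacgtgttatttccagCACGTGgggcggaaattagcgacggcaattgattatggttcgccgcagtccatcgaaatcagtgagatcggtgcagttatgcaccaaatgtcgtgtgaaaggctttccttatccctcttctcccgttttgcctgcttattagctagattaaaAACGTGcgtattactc
PHO5 (chrII:431189-431323, minus strand, 372 to 238 bases before the start codon): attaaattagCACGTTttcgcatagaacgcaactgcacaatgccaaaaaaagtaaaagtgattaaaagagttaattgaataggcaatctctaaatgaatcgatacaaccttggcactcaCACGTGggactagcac
VTC3 (chrXVI:517281-517373, minus strand, 355 to 263 bases before the start codon): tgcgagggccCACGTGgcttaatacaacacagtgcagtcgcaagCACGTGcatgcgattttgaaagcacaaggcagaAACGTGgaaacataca

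In these stretches PHO84 and VTC3 held a pair of CACGTG copies with a CACGTT copy nearer the gene, and PHO5 held 1 of each. The coding regions lie at XIII:24037-25800 (PHO84), II:796798-798522 (PHO89), II:429548-430951 (PHO5), IV:1418550-1420250 (PHO8), VII:954674-958210 (PHO81), VIII:374654-375100 (SPL2), V:302806-303195 (VTC1), VI:131810-134296 (VTC2), XVI:514511-517018 (VTC3) and X:411234-413399 (VTC4) of R64. The coding sequence of PHO5 was identical to that of PHO3 at 86.5% of positions, to PHO11 at 83.6% and to PHO12 at 83.5%, so reads between these phosphatases could be split by the quantification. PHO11 and PHO12 were identical to each other at 99.7% with a shared run of 786 bases, so their separate values below are uncertain. VTC2 and VTC3 were identical at 62.3% with no shared run over 14 bases, and PHO84 and PHO89 at 48.4%.

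All cultures were haploid W303 MATa yeast, whose alleles (ade2-1, ura3-1, can1-100, trp1Δ2, leu2-3_112, his3-11_15) were the same in every group, grown in synthetic medium with glucose. RNA was compared at 1 °C and 5 °C, each with high [GSH] (250 µM glutathione added, an antioxidant thiol) and with low [GSH] (none added), and at 30 °C with low [GSH] alone. New RNA was labelled with 4-thiouracil, a uracil analog given at 5 mM. The series description puts the addition after 2 weeks of incubation, and whether this also held at 30 °C is not given in the sources used here. Labelled RNA was pulled down at 0, 6, 12, 24, 48 and 96 h at 1 °C, with 1.5 and 3 h added at 5 °C, and at 0, 5, 10 and 20 min at 30 °C, and a steady-state sample was taken in each condition. The 109 libraries fall into 37 groups of 3 replicates, but only 2 libraries are used for each of the 3 h and 12 h points of 5 °C cultures given GSH.

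Libraries held 7791032 to 32634257 mRNA reads at steady state and 8267811 to 47877835 in labelled cold samples. Labelled 30 °C libraries held 18937 to 24823193 and time 0 libraries, the pull-down background, 8368 to 2032862. Genes that mark MATa cells summed to 2042 to 4374 mRNA TPM (each gene's length-corrected share of mRNA) over the 15 steady-state libraries, and those that mark the other mating type to 73.0 to 223 mRNA TPM in the cold with low [GSH], against 9.19 to 13.4 at 30 °C. The part of that shift in the results was not tested. Fold changes are scaled by TMM, a factor that assumes most genes alike between libraries. Scaled by all mRNA reads, the median gene stood at 0.64 on the log2 scale for 1 °C over 30 °C and at 0.29 for 5 °C over 30 °C, and scaled by the reads of the Schizosaccharomyces pombe cells added in fixed amount it stood at 2.38 and 1.02, against 0.03 and -0.03 by TMM. Where a direction depends on this choice, it is said.

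By TMM, most of the phosphate genes were lower in the cold than at 30 °C at steady state, a direction that S. pombe reads turned for 6 members at 1 °C. At 1 °C with low [GSH], 9 of the 10 members fell relative to 30 °C and none rose, where 36.4% of the 5697 genes tested fell and 36.9% rose (edgeR, adjusted p under 0.05), though scaled to S. pombe reads 6 members were higher and 0 lower. The members' median log2 fold change was -1.38, against 0.03 over all genes. At 5 °C, 7 members fell and 1 rose, against a background of 37.9% and 36.5%, with a member median of -0.93 and an all-gene median of -0.03, and scaled to S. pombe reads 4 members were lower and 1 higher. These were bulk cultures, in which fewer cells expressing a gene and less RNA per cell cannot be told apart. The choice of scale also set the overall split of calls. It was 2103 higher and 2076 lower at 1 °C by TMM, 3648 and 939 by mRNA reads, and 5385 and 30 by S. pombe reads. At 5 °C it was 2080 and 2162, then 2779 and 1479, then 3667 and 320.

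The high-affinity transporter PHO84 had 21.8, 44.2 and 5.54 mRNA TPM at 1 °C with low [GSH], 11.3, 10.9 and 13.8 at 5 °C and 20.1, 103 and 186 at 30 °C. All 5 °C libraries lay below the 30 °C ones, whereas the 1 °C libraries overlapped with the lowest of them. PHO84 was 7.38-fold lower at 1 °C (log2 fold change -2.88 ± 0.73 SE, edgeR adjusted p = 0.00251) and 12.9-fold lower at 5 °C (-3.69 ± 0.78, adjusted p = 0.00063). Without any 1 of the 6 libraries the 1 °C value stayed between -3.62 and -2.19 and past the threshold. These folds are by TMM. In TPM per 1000 TPM of S. pombe mRNA, PHO84 had 0.343, 0.557 and 0.0746 at 1 °C, which overlapped with 0.0899, 0.453 and 0.863 at 30 °C. The acid phosphatase PHO5 moved alongside, with 11.3, 43.5 and 9.13 mRNA TPM at 1 °C, 8.84, 11.2 and 8.37 at 5 °C and 21.4, 69.2 and 110 at 30 °C. It was 5.38-fold lower at 1 °C (-2.43 ± 0.52, edgeR adjusted p = 0.000727) and 10.7-fold lower at 5 °C (-3.42 ± 0.57, adjusted p = 7.78e-05). Per S. pombe mRNA PHO5 also overlapped, with 0.178, 0.549 and 0.123 at 1 °C against 0.0955, 0.303 and 0.510 at 30 °C. By S. pombe reads neither gene was called lower at 1 °C. Among its near copies, PHO12 also fell (-2.06 ± 0.22 at 1 °C and -1.48 ± 0.22 at 5 °C) and so did PHO11, while PHO3 did not pass the test.

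**Figure D1:**
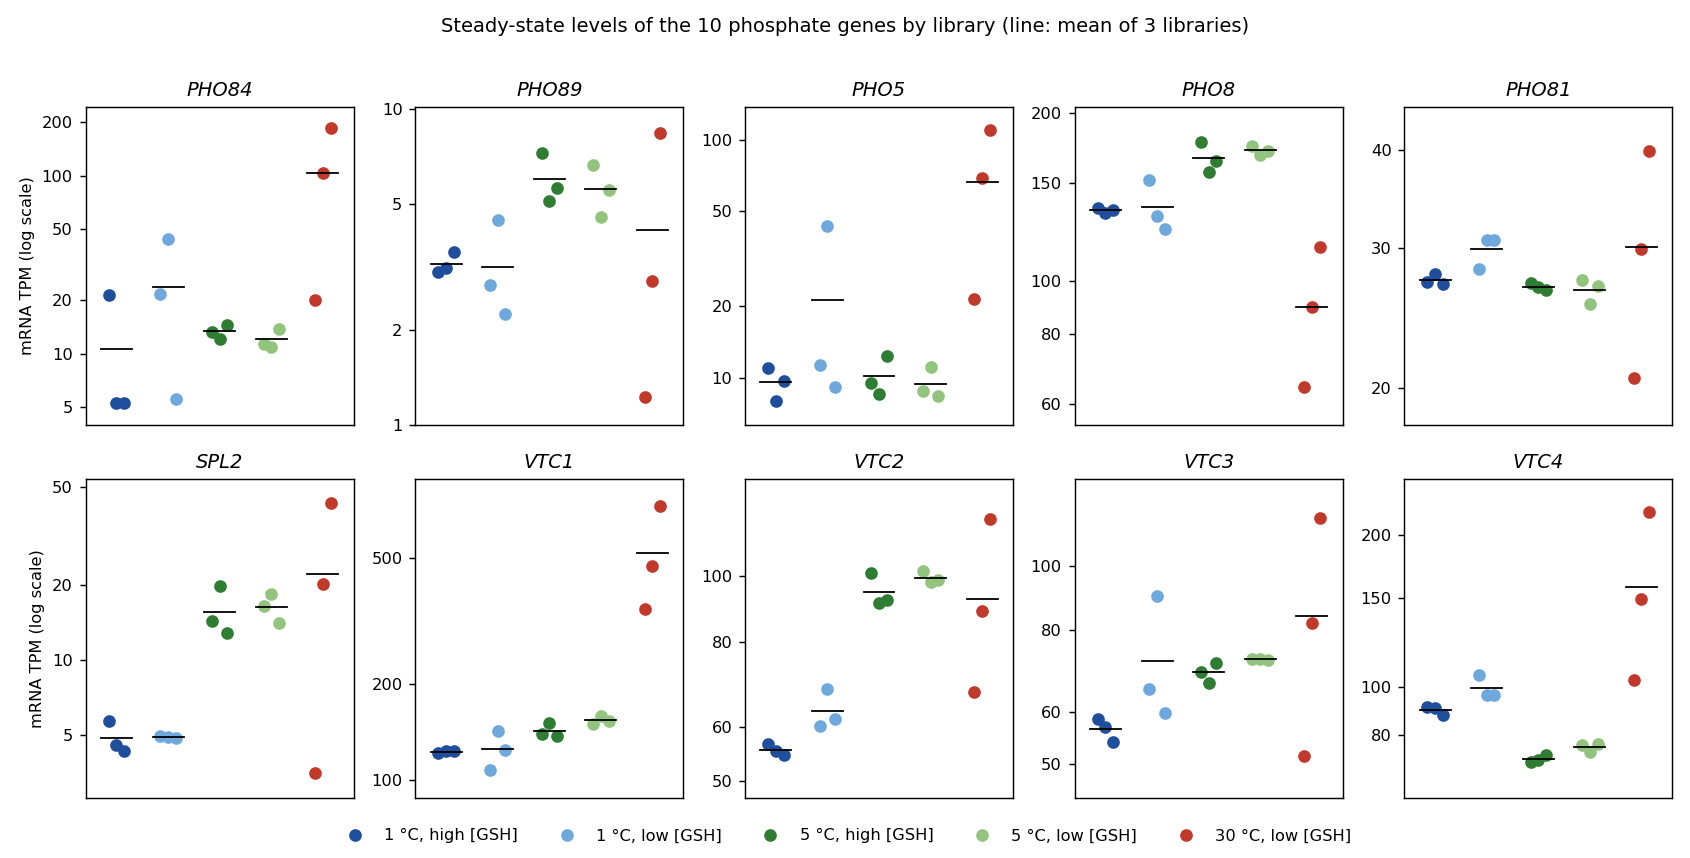
Steady-state level of each of the 10 genes in mRNA TPM on a log axis, 1 point per library (replicates 1, 2 and 3 from left to right) and a line at the mean of 3 libraries, for 1 °C and 5 °C with high and low [GSH] and 30 °C with low [GSH]. The 30 °C libraries spread from 20.1 to 186 for PHO84 and in the same order for all 10 genes, and for VTC1 the cold libraries (108 to 159) lie apart from the 30 °C ones (346 to 734).

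The 30 °C libraries differed among themselves, which widens the error of each fold against them. Replicate 1 was lowest and replicate 3 highest in all 10 members, an order shared by 46.5% of 5494 genes, and PHO84 differed 9.22-fold between them where the median gene differed 1.34-fold. At 1 °C with low [GSH], PHO84, PHO5, PHO89 and VTC3 were all highest in replicate 2 and lowest in replicate 3, the order of 31.9% of 5646 genes. Leaving out 1 library at a time left 8 to 10 members lower at 1 °C and 7 or 8 lower at 5 °C by TMM.

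Among the VTC genes, all 4 fell at both temperatures by TMM. VTC1, the small membrane subunit, had 108, 142 and 124 mRNA TPM at 1 °C, 150, 159 and 153 at 5 °C and 346, 474 and 734 at 30 °C, with no overlap between cold and warm libraries. It fell at 1 °C (-2.79 ± 0.17, edgeR adjusted p = 2.23e-09) and at 5 °C (-2.35 ± 0.17, adjusted p = 1.25e-08). In TPM per 1000 TPM of S. pombe mRNA, VTC1 had 1.69, 1.80 and 1.67 at 1 °C, inside the 30 °C range of 1.54, 2.08 and 3.41. At 5 °C it had 0.799, 1.06 and 1.23, below that range. VTC4, the polymerase, had 106, 96.1 and 96.3 mRNA TPM at 1 °C, 76.4, 74.1 and 76.8 at 5 °C and 103, 149 and 222 at 30 °C. It fell by 1.44 ± 0.15 and by 1.69 ± 0.15 on the log2 scale at 1 °C and 5 °C. The alternative partners overlapped with 30 °C in TPM, at 60.2, 68.2 and 61.7 for VTC2 and 65.0, 90.0 and 59.8 for VTC3 at 1 °C, 102, 97.9 and 98.5 for VTC2 and 72.1, 72.2 and 72.0 for VTC3 at 5 °C, against 67.6, 88.9 and 121 for VTC2 and 51.4, 81.8 and 118 for VTC3 at 30 °C. Both passed the test by TMM (VTC2 -1.32 ± 0.11 and -0.53 ± 0.11, VTC3 -1.01 ± 0.18 and -0.84 ± 0.18), but by mRNA reads VTC3 at 1 °C (-0.40) and VTC2 at 5 °C (-0.22) did not, and by S. pombe reads VTC2, VTC3 and VTC4 were higher at 1 °C and VTC2 and VTC3 were above 0 at 5 °C.

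PHO8, the vacuolar alkaline phosphatase, went the other way in its share of mRNA. It had 152, 131 and 124 mRNA TPM at 1 °C, 175, 169 and 171 at 5 °C and 64.2, 89.6 and 115 at 30 °C, with every cold library above every warm one. By TMM it did not pass at 1 °C (-0.18 ± 0.12, edgeR adjusted p = 0.193) and rose slightly at 5 °C (0.30 ± 0.12, adjusted p = 0.0351), and by mRNA reads it was higher at 1 °C too (0.42). The 5 °C call was lost without any 1 of 5 of the 6 libraries (0.16 to 0.31). PHO81, the inhibitor of the kinase, lay inside the 30 °C range, with 28.3, 30.8 and 30.8 mRNA TPM at 1 °C, 27.4, 25.5 and 26.9 at 5 °C and 20.6, 30.0 and 39.9 at 30 °C. It fell by TMM (-0.79 ± 0.13 and -0.82 ± 0.13), a call lost at 1 °C by mRNA reads (-0.18) and turned by S. pombe reads at 1 °C (1.55) and 5 °C (0.20).

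SPL2 and PHO89 were of low abundance. SPL2 had 4.92, 4.90 and 4.86 mRNA TPM at 1 °C (37 to 45 reads), 16.5, 18.4 and 14.1 at 5 °C and 3.51, 20.3 and 43.0 at 30 °C (21 to 475 reads). It fell at 1 °C (-2.89 ± 0.55, edgeR adjusted p = 0.000278), and at 5 °C its -1.02 ± 0.53 did not pass (adjusted p = 0.0938) except without 30 °C replicate 1 (-1.51). PHO89 had 2.76, 4.46 and 2.24 mRNA TPM at 1 °C, 6.66, 4.54 and 5.53 at 5 °C and 1.22, 2.85 and 8.38 at 30 °C. Its fall at 1 °C (-1.17 ± 0.45, adjusted p = 0.0295) rested on single libraries, at -0.19 without 30 °C replicate 3, and was also lost without 1 °C replicate 1 (-1.09) or 3 and by mRNA reads (-0.57). At 5 °C it was -0.20 ± 0.45.

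**Figure D2:**
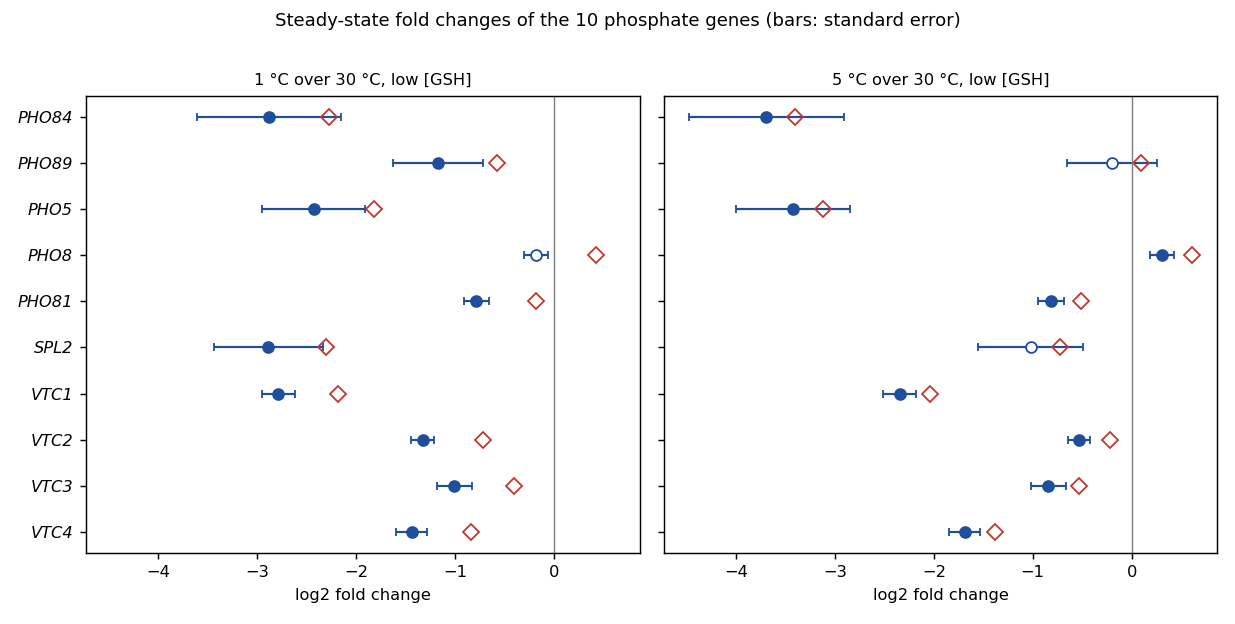
Steady-state log2 fold change of each gene at 1 °C over 30 °C (left) and 5 °C over 30 °C (right), low [GSH], with the standard error as bars; filled circles passed edgeR's test by TMM, open circles did not, and red diamonds give the value scaled by mRNA reads. By TMM, SPL2 (-2.89) and PHO84 (-2.88) lie lowest at 1 °C and PHO84 (-3.69) and PHO5 (-3.42) at 5 °C, where PHO8 (0.30) is the one member above 0, and by S. pombe reads (not drawn) 6 of the 10 were higher at 1 °C.

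Other genes of the pathway did not share one direction. The counts below stand beside 36.9% of all genes that rose and 36.4% that fell at 1 °C, and 36.5% and 37.9% at 5 °C. They are a description of short lists. Of 8 genes that control the pathway, 3 rose and 2 fell at 1 °C and 4 rose and 1 fell at 5 °C. The transcription factor gene PHO4 did not pass at either temperature (-0.15 ± 0.10 and 0.14 ± 0.11), the cyclin gene PHO80 rose at both (0.60 ± 0.10 and 0.71 ± 0.10), and PHO92, which encodes a reader of methylated RNA, rose at 5 °C (2.87 ± 0.27, edgeR adjusted p = 2.29e-07). Of 11 further genes known as Pho4 targets, 1 rose and 5 fell at 1 °C and 3 rose and 4 fell at 5 °C, with PHM7 at 2.34 ± 0.13 at 5 °C. Among 10 other transport, phosphatase and polyphosphate genes, 3 rose and 5 fell at 1 °C and 2 rose and 4 fell at 5 °C. The low-affinity transporter genes split, with PHO90 lower at both temperatures (-0.70 ± 0.12 and -1.22 ± 0.12), PHO91, of the vacuole, lower at 1 °C (-0.84 ± 0.09) and at -0.02 ± 0.09 at 5 °C, and PHO87 slightly higher (0.26 ± 0.10 and 0.31 ± 0.10). VTC5, an accessory subunit of the VTC complex, did not pass (0.06 ± 0.16 and 0.26 ± 0.16). All these folds are by TMM, and on the other scales the median gene lay higher by the values given above.

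Between the 2 cold temperatures fewer members were called. At 1 °C relative to 5 °C, 4 members were lower and 0 higher with low [GSH] (background 28.9% lower and 29.8% higher) and 3 lower and 0 higher with high [GSH] (29.8% and 29%), while by S. pombe reads 7 were higher and 0 lower with either. The overall split was 1700 higher and 1644 lower with low [GSH] by TMM, 2909 and 888 by mRNA reads and 4941 and 74 by S. pombe reads, and with high [GSH] 1652 and 1697, then 2692 and 979, then 4538 and 105. SPL2 had 5.67, 4.53 and 4.30 mRNA TPM at 1 °C and 14.3, 19.8 and 12.8 at 5 °C with high [GSH], with no overlap, as with low [GSH]. It was lower at 1 °C by 1.79 ± 0.56 with high [GSH], a call lost without 5 °C replicate 2 (-1.58), and by 1.87 ± 0.56 with low [GSH]. VTC2 was lower at 1 °C with both (-0.86 ± 0.11 and -0.79 ± 0.11), with 54.6 to 56.6 mRNA TPM at 1 °C and 91.2 to 101 at 5 °C in high [GSH]. PHO8 was also lower by TMM with both (-0.40 ± 0.12 and -0.48 ± 0.12) and not by mRNA reads (-0.12 and -0.19). VTC1 passed with low [GSH] only (-0.44 ± 0.16, against -0.32 ± 0.17 with high [GSH]), a difference that was not tested, and it failed without any 1 of 5 of the 6 libraries (-0.46 to -0.34). VTC4 had more TPM at 1 °C than at 5 °C in every library of both media and passed by mRNA reads (0.51 and 0.54) but not by TMM (0.23 and 0.25).

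Added glutathione changed none of the members past the test. In steady-state RNA 0 of 5697 genes were called at 1 °C or at 5 °C by edgeR (background 0% in each direction, with 298 and 43 genes at an unadjusted p under 0.05). DESeq2 called 0 in both, whereas scaled to S. pombe reads edgeR called 1 gene higher and 37 lower at 1 °C and 0 higher and 1 lower at 5 °C, with no member among them. At 1 °C, PHO84 had 21.5, 5.28 and 5.30 mRNA TPM with high [GSH], against 21.8, 44.2 and 5.54 with low [GSH], and PHO5 had 11.1, 8.03 and 9.72, against 11.3, 43.5 and 9.13. Low [GSH] replicate 2 was the highest library for both genes. The differences were -1.04 ± 0.71 for PHO84 and -1.04 ± 0.52 for PHO5, and -0.30 and -0.045 without that library. At 5 °C the members' log2 differences ran from -0.09 to 0.17, with standard errors of 0.11 to 0.79. The GSH difference at 1 °C minus that at 5 °C gave 0 called genes (background 0% each way, 61 at an unadjusted p under 0.05), with 0 also by DESeq2, and 1 higher and 4 lower by S. pombe reads, none of them a member. In labelled RNA, summed per culture over the times, 0 of 5807 genes were called at 1 °C or 5 °C (background 0% in each direction, 88 and 264 at an unadjusted p under 0.05), and DESeq2 called 4 lower at 1 °C and 0 at 5 °C, with no member among its calls. By S. pombe reads 0 genes were higher and 14 lower at 1 °C and 0 were called at 5 °C, and the mean of the differences at 5 times called 1 higher and 12 lower at 1 °C and 16 higher and 12 lower at 5 °C, again with no member among them. The members' differences in labelled RNA ran from -0.13 to 0.82 at 1 °C, with the highest for SPL2 (0.82 ± 0.47), and from -0.07 to 0.29 at 5 °C, with PHO84 highest (0.29 ± 0.14, edgeR adjusted p = 0.946). The low [GSH] side at 5 °C came from the cultures that chose the genes, so that comparison is not independent of the choice.

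The share of PHO84 in newly made RNA declined over labelling time in the 5 °C cultures. At 5 °C with low [GSH], the contrast known when the genes were chosen, labelled PHO84 made up 86.3, 131 and 197 mRNA TPM after 1.5 h, with means that declined at each time up to 24 h, and 11.2, 13.8 and 13.3 after 48 h. The change was -3.11 on the log2 scale. PHO89 changed by -1.10, PHO81 by -0.65, VTC4 by -0.47, VTC2 by -0.36, PHO5 by -0.34, VTC3 by -0.21, PHO8 by 0.11, VTC1 by 0.01 and SPL2 by -0.60 in the same contrast. The level after 48 h was close to that of steady-state RNA, where PHO84 had 10.9 to 13.8 mRNA TPM.

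The high [GSH] cultures at 5 °C were not those in which PHO84 was seen to fall, and they were tested. The genes were still chosen with earlier results of these data known. Same-numbered 5 °C steady-state libraries with high and low [GSH] also deviated together (r 0.19 to 0.29). This test is therefore not fully independent of the choice. PHO84 had 12.2, 16.1 and 14.6 mRNA TPM after 48 h, against 193, 164 and 139 after 1.5 h, a 9.27-fold lower share with no overlap (-3.21 ± 0.23, edgeR adjusted p = 1.44e-17). PHO89, the sodium-coupled transporter gene, had 7.03, 8.64 and 6.93 after 48 h, against 18.7, 20.3 and 16.8 after 1.5 h (-0.99 ± 0.29, adjusted p = 0.00251). In all, 6 members fell and 0 rose from 1.5 to 48 h with high [GSH] (background 31% fell and 32.6% rose of 5802 genes), whereas by S. pombe reads 9 rose and 0 fell. The other 4 were VTC4 (-0.56 ± 0.12), PHO81 (-0.50 ± 0.13), VTC2 (-0.40 ± 0.11) and VTC3 (-0.26 ± 0.11), of which VTC3 was lost without any 1 of the 3 cultures (-0.29 to -0.26). The split over all genes was 1889 higher and 1797 lower by TMM and 5521 and 5 by S. pombe reads. Libraries of a culture at several times were taken as independent here, and with each culture as a block PHO5 was also called (-0.45).

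**Figure D3:**
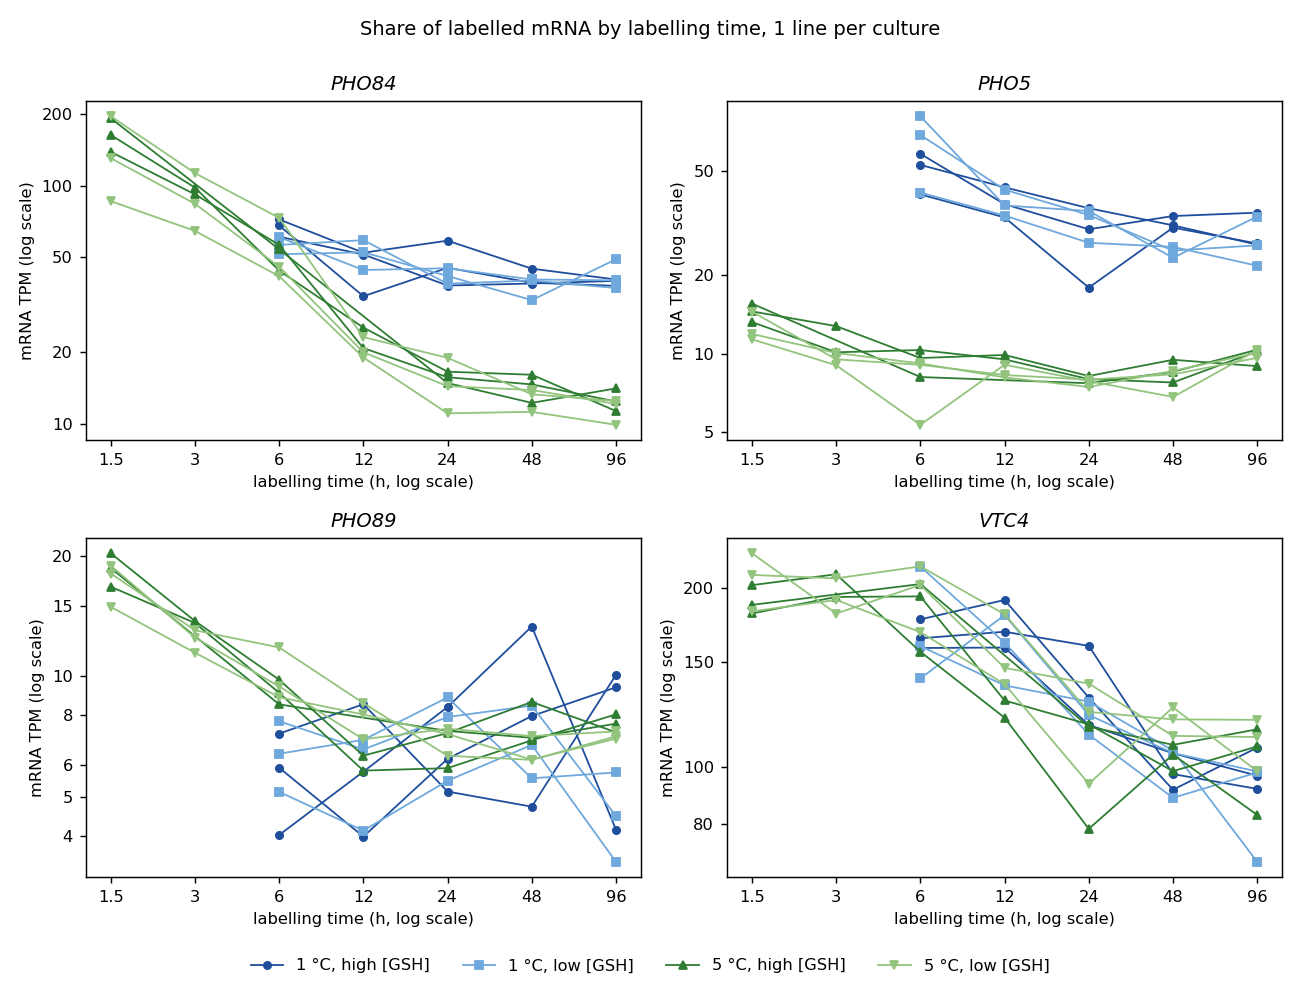
Labelled level of PHO84, PHO5, PHO89 and VTC4 in mRNA TPM (log axis) against labelling time in hours (log axis), 1 line per culture, for 1 °C and 5 °C with high and low [GSH]. The 6 PHO84 lines at 5 °C drop to 9.88 to 14.1 at 96 h from 86.3 to 197 at 1.5 h while those at 1 °C end at 37.2 to 49.1, and for PHO5 every 1 °C line lies above every 5 °C line.

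At 1 °C the labelling course began at 6 h. PHO84 had 40.0, 33.1 and 40.4 mRNA TPM after 48 h, against 56.5, 51.6 and 60.9 after 6 h with low [GSH], and 44.9, 39.2 and 38.9 against 72.3, 68.2 and 61.1 with high [GSH]. Its share in TPM was lower in each of the 6 cultures, but by TMM the change of -0.25 ± 0.21 in either medium did not pass the test (adjusted p = 0.346 and 0.338). With low [GSH] 3 members fell and 0 rose from 6 to 48 h (background 24.9% and 25.4%), and with high [GSH] 2 fell and 1 rose (26% and 26.9%), while by S. pombe reads 9 rose and 0 fell in both. Those that fell were PHO5 (-1.04 ± 0.22), PHO81 (-0.57 ± 0.13) and VTC4 (-0.45 ± 0.12) with low [GSH], and PHO81 (-0.81 ± 0.13) and VTC4 (-0.30 ± 0.12) with high [GSH]. VTC4 was lost without low [GSH] replicate 3 (-0.13), and with high [GSH] without any 1 culture (-0.35 to -0.22).

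PHO89 rose with high [GSH] (1.03 ± 0.29, edgeR adjusted p = 0.00227), with 13.3, 7.96 and 4.73 mRNA TPM after 48 h, against 4.02, 5.91 and 7.20 after 6 h, and not without replicate 1 (0.37). With low [GSH] its change was 0.46 ± 0.29. VTC2, at -0.24 ± 0.11 and -0.25 ± 0.11, passed once each culture was a block (-0.24 and -0.25). The change with high [GSH] minus that with low [GSH] called 2 of 5802 genes (0.0345% higher and 0% lower), none of them a member, and PHO5 stood at 0.82 ± 0.31 (edgeR adjusted p = 0.575). SPL2 gave too few reads to follow, with 0 in 7 of the 30 labelled 1 °C libraries and at most 161 in the others. Over all genes the split was 1474 higher and 1445 lower with low [GSH] by TMM and 5107 and 9 by S. pombe reads, and 1562 and 1509, then 4485 and 3, with high [GSH].

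The temperatures were then compared over the labelling times that all had. These comparisons were added after seeing the data, and libraries of a culture at several times were taken as independent. With high [GSH], the change of PHO84 over 6 to 48 h at 1 °C exceeded that at 5 °C by 1.36 ± 0.31 (edgeR adjusted p = 0.000864), and PHO89 (1.09 ± 0.41), VTC1 (0.83 ± 0.31), VTC3 (0.46 ± 0.16) and PHO8 (0.43 ± 0.15) also changed more upward at 1 °C, while PHO81 changed more downward (-0.998 ± 0.19, adjusted p = 0.000102). These 5 higher and 1 lower stand beside 13.5% higher and 13.5% lower of all genes, a split of 786 and 783 that became 0 and 0 by S. pombe reads. The count of 5 dropped to 1 without 5 °C replicate 1 and to 2 without 1 °C replicate 1, and PHO84 and PHO81 were called under each omission. With low [GSH], given without a test since its 5 °C cultures chose the genes, PHO84 differed by 1.60, PHO89 by 0.86, PHO81 by -0.56 and PHO5 by -1.26.

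Averaged over 6, 24, 48 and 96 h, labelled PHO84 and PHO5 were higher at 1 °C than at 5 °C with high [GSH] on each of the 3 scales (TMM, mRNA reads and S. pombe reads). With high [GSH], PHO5 had 40.6, 58.1 and 52.7 mRNA TPM at 6 h at 1 °C, against 8.13, 9.61 and 10.3 at 5 °C, and the mean difference was 1.57 ± 0.11 (edgeR adjusted p = 5.49e-18). PHO84 differed by 0.93 ± 0.11 (adjusted p = 9.87e-11). Libraries of a culture at several times were taken as independent here, so these p-values are too small for 3 cultures against 3. With the 4 times summed to 1 library per culture, PHO84 (0.78, edgeR adjusted p = 0.000156) and PHO5 (1.57, adjusted p = 4.96e-06) were still called, and 3 members were higher and 6 lower, as in the fit by time. The near copies of PHO5, which are PHO3 (-0.76 ± 0.11), PHO11 (-0.83 ± 0.36) and PHO12 (-0.80 ± 0.22), were lower at 1 °C by TMM, the opposite sign. VTC3 was also higher (0.22 ± 0.06).

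The other members pointed down by TMM. In total 3 were higher and 6 lower with high [GSH] (background 35.5% and 35.8%), a count that by S. pombe reads had 0 lower and by mRNA reads 1 lower. VTC2 was the member lower by both TMM and mRNA reads (-0.68 ± 0.06). PHO89 (-0.49 ± 0.14), PHO8 (-0.38 ± 0.05), PHO81 (-0.28 ± 0.07), VTC1 (-0.53 ± 0.11) and VTC4 (-0.32 ± 0.06) were lower by TMM, of which PHO89 was lost without 5 °C replicate 2 (-0.31). Of the 11 further Pho4 targets, 2 rose and 7 fell with high [GSH], with PHM6 at 2.52 ± 0.32. Among the control genes PHO4 was higher at 1 °C (0.30 ± 0.11). Over all genes the split with high [GSH] was 2059 higher and 2080 lower by TMM, 3233 and 1145 by mRNA reads and 2988 and 597 by S. pombe reads.

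With low [GSH], whose 5 °C cultures chose the genes, the same comparison is given without a test. PHO5 had 41.3, 80.9 and 68.5 mRNA TPM at 6 h at 1 °C, against 5.34, 9.16 and 9.05 at 5 °C. The mean differences by TMM were 1.76 for PHO5, 0.99 for PHO84 and 0.13 for VTC3, and those below 0 were SPL2 (-1.20), VTC2 (-0.62), PHO89 (-0.54), VTC4 (-0.44), PHO81 (-0.40), PHO8 (-0.27) and VTC1 (-0.27). By S. pombe reads all 10 lay above 0.

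**Figure D4:**
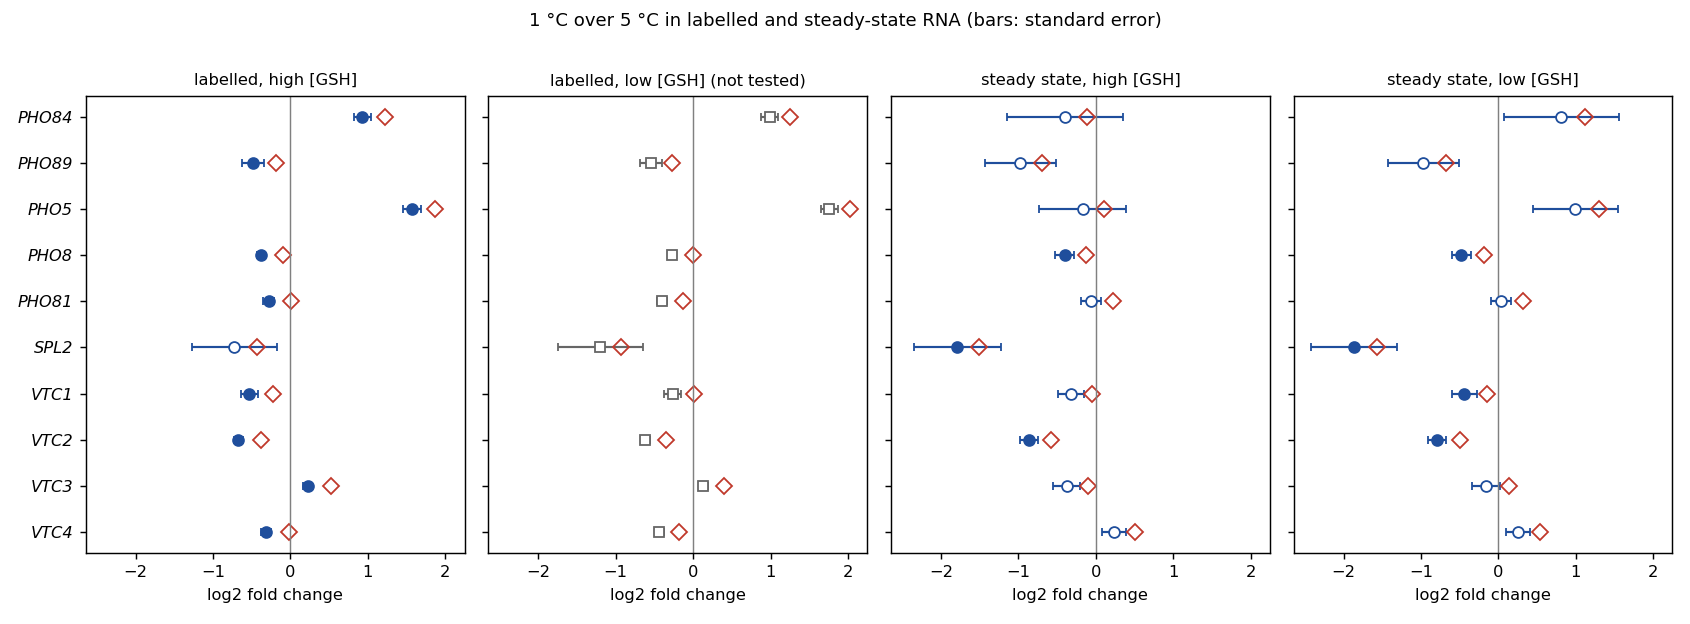
Log2 fold change of each gene at 1 °C over 5 °C in labelled RNA (mean of 6, 24, 48 and 96 h) and in steady-state RNA, with high and low [GSH], and the standard error as bars; filled circles passed edgeR's test by TMM, open circles did not, gray squares were not tested, and red diamonds give the value scaled by mRNA reads. In labelled RNA PHO84 lies at 0.93 and 0.99 and PHO5 at 1.57 and 1.76, neither was called at steady state by TMM, and most other members lie below 0 by TMM and move toward or past it by mRNA reads.

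By TMM, the labelled excess of PHO84 and PHO5 at 1 °C was not matched by a called difference in steady-state RNA, whereas by S. pombe reads both were called there with high [GSH] (1.07 and 1.06). For PHO84 that excess lay in replicate 1 alone. In TPM per 1000 TPM of S. pombe mRNA it had 0.417, 0.0534 and 0.0618 at 1 °C, against 0.0911, 0.094 and 0.105 at 5 °C. Replicates 2 and 3 at 1 °C thus lay below every 5 °C library. With low [GSH], PHO84 had 0.343, 0.557 and 0.0746 at 1 °C, overlapping with 0.0603, 0.0731 and 0.111 at 5 °C. PHO5 had 0.178, 0.549 and 0.123 at 1 °C with low [GSH], above 0.047, 0.0747 and 0.0673 at 5 °C with no overlap. By TMM, PHO84 differed by -0.40 ± 0.75 with high [GSH] and 0.81 ± 0.74 with low [GSH], and PHO5 by -0.17 ± 0.56 and 0.99 ± 0.55. After 96 h of label at 1 °C, PHO84 had 40.4, 38.0 and 39.9 mRNA TPM with high [GSH] and PHO5 26.4, 34.6 and 26.1, above the steady-state values of that condition, which were 21.5, 5.28 and 5.30 for PHO84 and 11.1, 8.03 and 9.72 for PHO5. With low [GSH] they overlapped, at 37.2, 49.1 and 40.1 after 96 h and 21.8, 44.2 and 5.54 at steady state for PHO84, and 21.7, 33.4 and 25.9 after 96 h and 11.3, 43.5 and 9.13 at steady state for PHO5. At 5 °C the 96 h values with high [GSH], 14.1, 11.3 and 12.4 for PHO84, overlapped with the steady-state 13.3, 12.2 and 14.6. Labelled and steady-state libraries were prepared differently, and no test was run between them.

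Levels per spike-in, in TPM per 1000 TPM of S. pombe mRNA, follow amounts of labelled RNA rather than shares. These are relative amounts, since cells per sample were not used here. At 5 °C with high [GSH], PHO84 stood at 0.492, 0.410 and 0.413 after 1.5 h, at 0.377, 0.282 and 0.357 after 6 h, at 0.212, 0.203 and 0.203 after 24 h at 0.325, 0.362 and 0.215 after 48 h and at 0.526, 0.336 and 0.284 after 96 h. With low [GSH] it stood at 0.107, 0.121 and 0.352 after 24 h, 0.119, 0.178 and 0.233 after 48 h and 0.131, 0.187 and 0.416 after 96 h, so the 96 h level lay above that at 24 h in 6 of 6 cultures. The amount was highest at 3 h in 5 of the 6 cultures at 5 °C, and at 96 h (0.526) in high [GSH] replicate 1, which has no 3 h library here. Time 0 libraries at 5 °C, the pull-down background, held 0.0002 to 0.0079. From 1.5 to 48 h the mean log2 change was -0.57 ± 0.38 with high [GSH] and -0.81 ± 0.26 with low [GSH] (SD, n = 3 cultures each), and it was below 0 in 6 of 6 cultures.

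PHO84 was the one member of the 10 lower at 48 h in all cultures at 5 °C. The other 9 members rose by 1.13 to 2.64 on the log2 scale in mean at 5 °C, and the median of 5721 genes with enough reads rose by 2.65 with high [GSH] and 2.24 with low [GSH]. Among those genes, 8 with high [GSH] and 19 with low [GSH] (0.140% and 0.332%) were lower at 48 h in all 3 cultures. At 1 °C none of the 10 members fell from 6 to 48 h. PHO84 rose by 1.03 ± 0.07 with high [GSH] and 1.28 ± 0.19 with low [GSH], where the median gene rose by 1.28 and 1.55, and with high [GSH] it went through 0.432, 0.385 and 0.449 after 6 h, 0.514, 0.397 and 0.621 after 12 h, 0.868, 1.01 and 0.478 after 24 h and 0.906, 0.745 and 0.950 after 48 h. PHO81 rose least with high [GSH] (0.46) and PHO5 with low [GSH] (0.54).

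**Figure D5:**
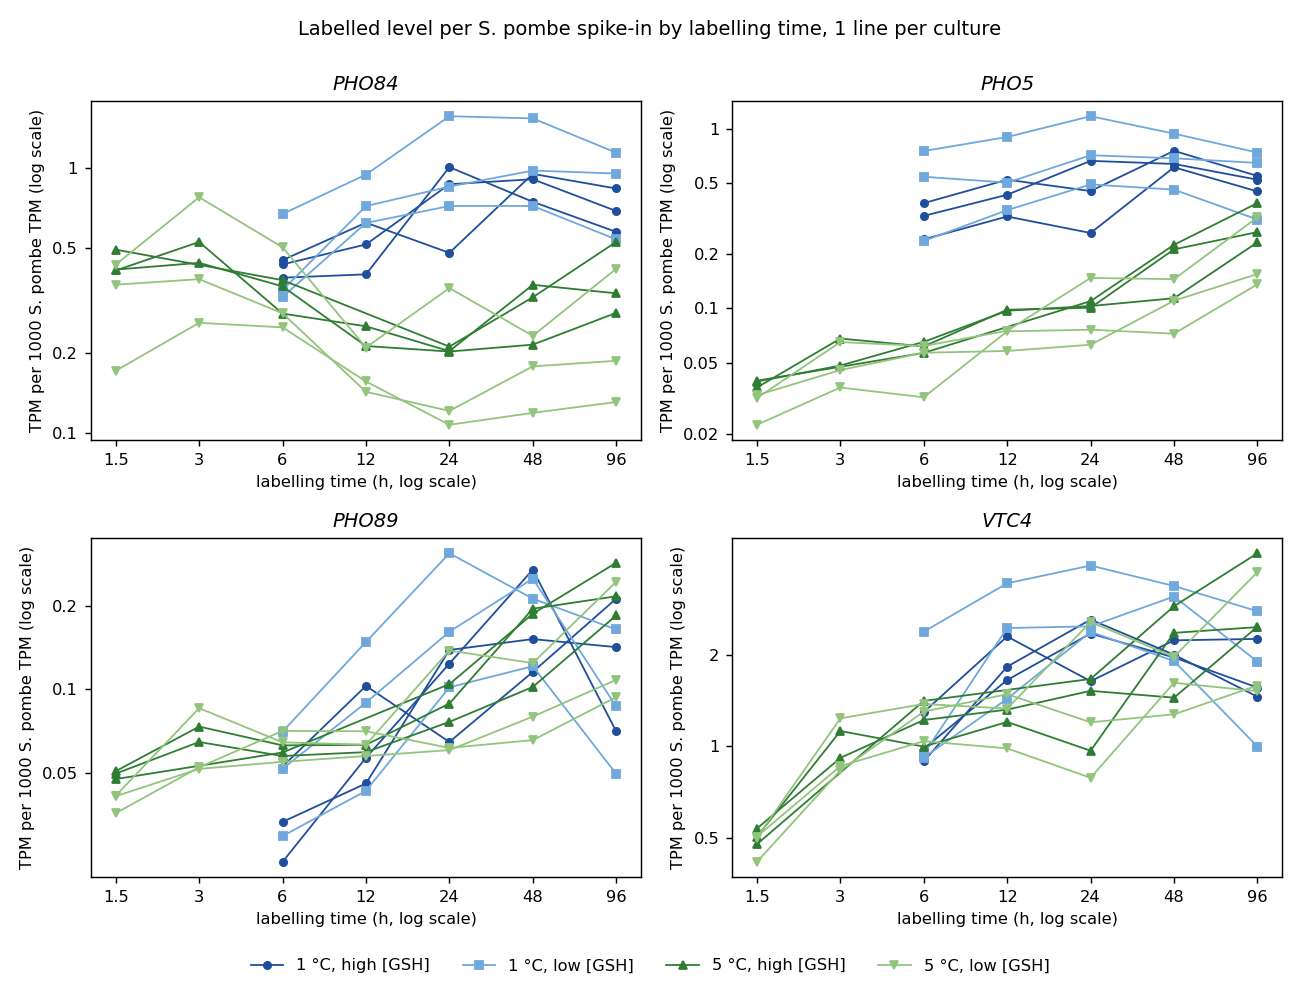
Labelled level of PHO84, PHO5, PHO89 and VTC4 per spike-in (TPM per 1000 TPM of S. pombe mRNA, log axis) against labelling time in hours (log axis), 1 line per culture. PHO84 at 5 °C declines after 1.5 to 3 h and stands at 0.119 to 0.362 at 48 h and 0.131 to 0.526 at 96 h, whereas at 1 °C it climbs to 0.719 to 1.54 at 48 h, and the other 3 genes are higher at 48 h than at the first time in each culture.

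Fitting constant synthesis and decay up to 48 h gave PHO84 a half-life of 7.84 h at 1 °C in the median culture with either medium (5.83 to 8.14 h with low [GSH] and 6.89 to 8.29 h with high [GSH]). At 5 °C the fit ran to its lower bound of 0.15 h in 5 of 6 cultures, since a curve that falls cannot be described by that equation, so no half-life is given. VTC4 had medians of 5.83 h with high [GSH] and 6.64 h with low [GSH] at 1 °C, and 2.85 h and 2.05 h at 5 °C. VTC2 had 5.42 h and 7.15 h at 1 °C, and 2.39 h and 2.05 h at 5 °C. The 5 °C values with high [GSH] rested on leaving out 96 h, since with it the medians were 12.6 h for VTC4 and 7.67 h for VTC2. Not every member had a shorter median at 5 °C. With high [GSH], medians at 1 °C and 5 °C were 2.94 and 85.7 h for PHO81 and 6.64 and 17.6 h for PHO5. They were 9.26 and 9.12 h for VTC3, 7.02 and 5.62 h for PHO8 and 25.6 and 5.75 h for VTC1. With low [GSH], the same 5 genes in that order had 4.34 and 2.34 h, 3.41 and 4.23 h, 8.44 and 2.72 h, 7.99 and 2.61 h, and 14.4 and 2.67 h. The longer 5 °C medians of PHO81 and PHO5 with high [GSH] depended on the weights of the fit. With more weight on small values, PHO81 had 2.54 and 1.64 h and PHO5 3.35 and 3.04 h at 1 °C and 5 °C. With 96 h included, the 5 °C medians were 22.3 h for PHO81 and 25.1 h for PHO5. Cultures differed several-fold at 5 °C, with high [GSH] from 2.19 to 7.99 h for VTC4 and from 2.34 to 87.6 h for PHO81. SPL2 and PHO89 were poorly determined, each with a fit at the upper bound of 960 h in 1 culture at 1 °C with high [GSH].

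At 30 °C the labelled libraries differed widely in depth. PHO84 had 0, 1137 and 1470 mRNA TPM after 5 min, 210, 452 and 1313 after 10 min and 71.3, 194 and 379 after 20 min, against 20.1, 103 and 186 at steady state. Replicate 1 after 5 min held only 18937 mRNA reads, and its 0 is not evidence of absence. The highest shares came from replicate 3, which held 218194 mRNA reads after 5 min. Its summed mRNA TPM over that of S. pombe mRNA was 0.0631, 0.157 and 0.707 after 5, 10 and 20 min. Its time 0 library, the background, stood at 0.0344, so these high shares are uncertain. In mRNA TPM, replicate 1 was the lowest and replicate 3 the highest after 10 and 20 min, as in the steady-state libraries. Per 1000 TPM of S. pombe mRNA the order differed. Replicate 3 was then the lowest after 10 min (0.206, against 0.651 and 0.840) and after 20 min (0.268, against 0.403 and 1.02).

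Over the 29 group means of steady-state and cold labelled RNA, the genes most like PHO84 among 5501 by Pearson r of log2 levels were FUR4 (0.92), which encodes the uracil permease, MRX16 (0.88), IBA57 (0.88), HGH1 (0.88) and CAB1 (0.88). VTC4 was the member most like it (0.70, rank 335), followed by VTC3 (0.60), PHO81 (0.57), PHO5 (0.42), VTC1 (0.41), PHO89 (0.41), VTC2 (0.35) and PHO8 (0.11), while SPL2 fell below the level used. The groups share cultures and depth and labelled and steady-state RNA form blocks, so these are descriptions over 29 points. Between PHO5 and VTC3 the value was 0.79, and between PHO5 and PHO89 it was -0.46.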

How the data were processed

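Per the labels and the study's methods, the authors quantified each library with Salmon (version not given in the sources used here) against the transcripts of both yeasts (S. cerevisiae build R64). The deposited tables give TPM and estimated counts for 13700 transcripts per library. Whether strand was used in counting is not given in the sources used here, so antisense RNA cannot be told apart. TPM was rescaled over 5876 nuclear protein-coding genes (mRNA TPM), or expressed per 1000 TPM of 5151 S. pombe mRNAs together. Tests used edgeR 4.0.16 in R 4.3.3 on the estimated counts after rounding to whole numbers (filterByExpr, TMM, quasi-likelihood F-test, Benjamini-Hochberg threshold 0.05), checked on simulated data, with DESeq2 1.42.0 as an alternative. Half-lives assumed constant synthesis and first-order decay up to 48 h.

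The members and lists were chosen with earlier results of these data known. All 10 members were named in each main comparison. From the lists, PHO4, PHO80, PHO87, PHO90, PHO91, VTC5, PHO3, PHO11, PHO12 and any gene past the test with an absolute log2 fold change of at least 2 were to be named, and the 5 genes most like PHO84. The 6 to 48 h comparison of temperatures, the mean over 4 labelling times the block of each culture and the sums per culture were added after seeing the data. Labels call the replicates biological and give no batch, so temperature and batch cannot be told apart. Times of 1 condition come from the same cultures. Same-numbered steady-state libraries with high and low [GSH] deviated together at 5 °C (r 0.19 to 0.29 over 3 pairs) and at 1 °C (r 0.086 to 0.27 over 3 pairs). So did same-numbered labelled libraries of 6 and 48 h at 1 °C with high [GSH] (r 0.14 to 0.19). With low [GSH] the same times at 1 °C varied in sign (r -0.20 to 0.13). So did 1.5 and 48 h at 5 °C, with r of -0.029 to 0.41 with high [GSH] and -0.26 to 0.44 with low [GSH].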

Additional observations from a re-analysis of the deposited data

Results flagged for a closer look

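With high [GSH], 6 members changed differently between 6 and 48 h of labelling at 1 °C and at 5 °C, by a test of the difference itself (edgeR, TMM). The change at 1 °C minus that at 5 °C was 1.36 for PHO84 (adjusted p = 0.000864), 1.09 for PHO89 (adjusted p = 0.0392), 0.83 for VTC1 (adjusted p = 0.0425), 0.46 for VTC3 (adjusted p = 0.0246), 0.43 for PHO8 (adjusted p = 0.0249) and -0.998 for PHO81 (adjusted p = 0.000102). None of the 6 was called when scaled to S. pombe reads. The comparison was added after seeing the data, and libraries of a culture at several times were taken as independent. PHO89, VTC1, VTC3 and PHO8 each lost the call on leaving out some single culture.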

How the results depend on the processing

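Of 1694 member fold changes under other settings, 1506 kept their call status or, where untested, stayed within their error or spread. A change of sign between uncalled values was counted as kept. Of the rest, 59 reversed, 63 lost and 35 gained a call, and 31 untested ones moved. Of 120 half-lives 27 moved. The cause of these shifts was not tested. Depth limits SPL2, with 0 reads in 7 of the 30 labelled 1 °C libraries. With replicate number as a block, PHO89 at 1 °C over 30 °C was lost (-1.04), while VTC2 at 1 °C (-0.24 and -0.25) and PHO5 at 5 °C (-0.45) were gained; the block changed no other call. With each culture as a block, the 6 to 48 h difference of VTC2 was also gained (0.34).

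Scaled to S. pombe reads, 1 °C over 30 °C had 6 members higher and 0 lower (signs that turned, in each bracket: PHO89 1.10, PHO8 2.17, PHO81 1.55, VTC2 1.01, VTC3 1.31, VTC4 0.90), and 5 °C over 30 °C had 1 higher and 4 lower, with PHO81 (0.20), VTC2 (0.49) and VTC3 (0.17) turned but not called. At steady state, 1 °C over 5 °C had 7 higher and 0 lower with low [GSH] (PHO8 0.85, VTC1 0.86, VTC2 0.52, VTC3 1.14) and with high [GSH] (PHO84 1.07, PHO5 1.06, PHO8 0.79, PHO81 1.12, VTC1 0.85, VTC2 0.33, VTC3 0.82). With high [GSH], only replicate 1 of the 1 °C libraries held more PHO84 per S. pombe mRNA than the 5 °C ones. From 6 to 48 h at 1 °C it had 9 higher and 0 lower with low [GSH] (PHO84 1.24, PHO5 0.43, PHO81 0.97, VTC2 1.24, VTC4 0.97) and with high [GSH] (PHO84 1.05, PHO5 1.08, PHO8 1.22, PHO81 0.48, VTC2 1.03, VTC4 0.98). From 1.5 to 48 h at 5 °C it had 9 higher and 0 lower with high [GSH] (PHO89 1.58, PHO5 2.14, PHO8 2.52, PHO81 2.10, VTC1 2.48, VTC2 2.16, VTC3 2.31, VTC4 2.01), and low [GSH] gave PHO89 1.06, PHO5 1.79, PHO81 1.48, SPL2 1.49, VTC2 1.74 and VTC4 1.65. The 6 to 48 h difference had 0 higher and 0 lower with high [GSH], and PHO81 at 0.19 with low [GSH]. Labelled 1 °C over 5 °C had 3 higher and 0 lower with high [GSH], with PHO8 (0.045), PHO81 (0.14) and VTC4 (0.11) turned but not called, and, untested, low [GSH] turned 7 (PHO89 0.62, PHO8 0.87, PHO81 0.69, SPL2 0.012, VTC1 0.87, VTC2 0.53, VTC4 0.70).

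Scaled to summed mRNA reads, 1 member was higher at 1 °C over 30 °C (PHO8 turned to 0.42), 1 higher and 2 lower at 1 °C over 5 °C with low [GSH], and 1 higher with high [GSH]. In labelled RNA at 1 °C over 5 °C with high [GSH], 1 was lower (VTC2), and the sign turned for PHO81 (0.010) and, untested, for VTC1 with low [GSH] (0.0093). DESeq2's test had 2 members higher from 6 to 48 h at 1 °C with high [GSH]. Leaving out 1 library or culture at a time gave 0 to 1 higher at 5 °C over 30 °C, 0 to 1 higher from 6 to 48 h at 1 °C with low [GSH], 0 to 2 higher and 1 lower with high [GSH], and 1 to 5 higher for the 6 to 48 h difference.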
